A study of Macaca mulatta with 9 samples.

Results

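The genes described here encode the lysyl oxidases LOX, LOXL1 and LOXL2, the matrix proteases FAP, MMP1, MMP2 and MMP3, and the protease inhibitors TIMP1, TIMP2 and TIMP3. They were taken by symbol from the probe set descriptions in the authors' annotation, and 22 probe sets carried one of these 10 symbols, of 19792 genes named on the array. The symbols are mostly those of human orthologues. Of the members, 4 (LOXL1, MMP1, MMP3 and TIMP1) had 1 probe set, FAP and MMP2 had 2, LOX, LOXL2 and TIMP2 had 3, and TIMP3 had 5. No member was lost to a filter on low values, because none was applied.

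RNA from rhesus macaque cells was measured on 9 single-colour Affymetrix arrays. The embryonic stem (ES) cells, pluripotent cells of the early embryo, were the lines ORMES6 (3 arrays, labelled as biological replicates A, B and C), ORMES7, ORMES9, ORMES10 and ORMES13 (1 array each). All 5 lines were kept in medium with 15% serum and 4 ng/ml FGF2 on inactivated mouse embryonic fibroblasts, and colonies with good morphology were picked by hand, so each ES sample came from a culture that held a layer of mouse feeder cells. The embryoid body (EB) sample was 1 pool of aggregates that had differentiated spontaneously for 30 days in 15% serum without FGF2. The lines it was made from are not given in the sources used here. Its labels describe the culture in different ways, as low-adhesion dishes throughout or as a week in suspension followed by gelatin-coated dishes. The fibroblast sample was 1 array of adult skin fibroblasts grown to confluence in 10% serum without feeders and lifted with trypsin. No genetic modification is named in the labels for any sample.

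Collagen and elastin fibres gain their strength outside the cell, where lysyl oxidases oxidise lysine side chains so that neighbouring chains can be cross-linked. Matrix metalloproteinases (MMPs) cut these fibres and other matrix proteins, and the tissue inhibitors of metalloproteinases (TIMPs) bind their active sites and block them. FAP is a serine protease of the cell surface that is a known marker of activated fibroblasts. In connective tissue these genes are chiefly products of fibroblasts and related mesenchymal cells.

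Signals are the authors' linear values, scaled to the same 2% trimmed mean of 200 on every array. Differences are ES minus the other sample on the log2(signal + 16) scale, with the standard error (SE) of the limma fit, and folds are of signal + 16, which understates the change of dim genes. The mean of the 3 ORMES6 arrays stood for that line, so that 5 ES lines were set against 1 array, and the number of arrays limits the precision. P-values were adjusted over 52763 probe sets and called below 0.05. They assume that the lone EB and fibroblast arrays vary as the ES lines do. Where a gene had several probe sets, that with the highest mean log2(signal + 16) over the 5 lines, EBs and fibroblasts stood for it. That mean includes the EB and fibroblast arrays, where the members were mostly brightest. In RNA from mixed cells, fewer cells of a type and less RNA per cell cannot be told apart.

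The labels held up against their defining genes. The pluripotency factors POU5F1 and NANOG had signals of 3812 to 7588 and 2461 to 5249 on the 7 ES arrays, 148 and 28.2 in the EBs, and 19.8 and 1.2 in the fibroblasts. The summed signal of 15 fibroblast markers was 14524 to 35952 on the ES arrays, 50510 in the EBs and 62406 in the fibroblasts. On the ES arrays with detection values 13 to 15 of the 15 were Present, none of them was at 0, and 3 were called lower and 1 (THY1) higher in ES cells than in fibroblasts. The ES arrays differed among themselves in this sum, with 14524 to 18440 on the arrays of ORMES6, ORMES7 and ORMES9, 26205 in ORMES10 and 35952 in ORMES13. Genes of the list did not all follow this order, and on some ORMES9 stood apart from ORMES6 and ORMES7. VIM had 4670 to 6197 on the ORMES6 and ORMES7 arrays, 2595 in ORMES9, 1925 in ORMES10 and 2490 in ORMES13. LUM had 8.6 to 15.5 on the ORMES6 and ORMES7 arrays, 1396 in ORMES9, 2683 in ORMES10 and 5283 in ORMES13. Array quality also differed between cell types. Actin signal at the 3' end over that at the 5' end, a measure of RNA integrity, came to 22.7 to 66.2 for the ES samples, 7.15 for the EBs and 13.1 for the fibroblasts. The same ratio for GAPDH did not set the fibroblasts apart, with 1.98 to 4.19 for the ES samples, 1.27 for the EBs and 2.24 for the fibroblasts. The part of RNA integrity in the differences between cell types was not tested. The hybridisation spikes had a geometric mean of 617 on the EB array, 683 and 701 on ORMES6 A and B, and 1013 to 1360 on the other 6 arrays.

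Against the fibroblasts 7 of 10 genes were lower in the ES lines (LOX, FAP, MMP2, MMP3, TIMP1, TIMP2 and TIMP3) and 0 were higher (0 also at an unadjusted p below 0.05), with a median difference of -2.97. Over all 19792 genes the median was 0.25, 7.06% were called lower in ES cells and 11.0% higher. Against the EBs 5 of 10 were lower (LOX, LOXL2, FAP, MMP3 and TIMP1) and 0 higher (again 0 at an unadjusted p below 0.05), with a median of -2.06 against 0.04 over all genes, of which 2.03% were called lower and 1.76% higher. LOX, FAP, MMP3 and TIMP1 made up the 4 genes called lower against both, and these comparisons share the ES arrays. The EB signal lay above all 7 ES arrays for 10 of 10 members, against 21.5% of all genes, and the fibroblast signal for 9 of 10, against 18.2% of all genes. Counted by probe set, 12 of 22 were lower against the fibroblasts (5.48% of all probe sets) and 9 of 22 against the EBs (1.53%). The members were chosen with earlier results of these data known, so their shares beside those of all genes are a description only.

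**Figure D1:**
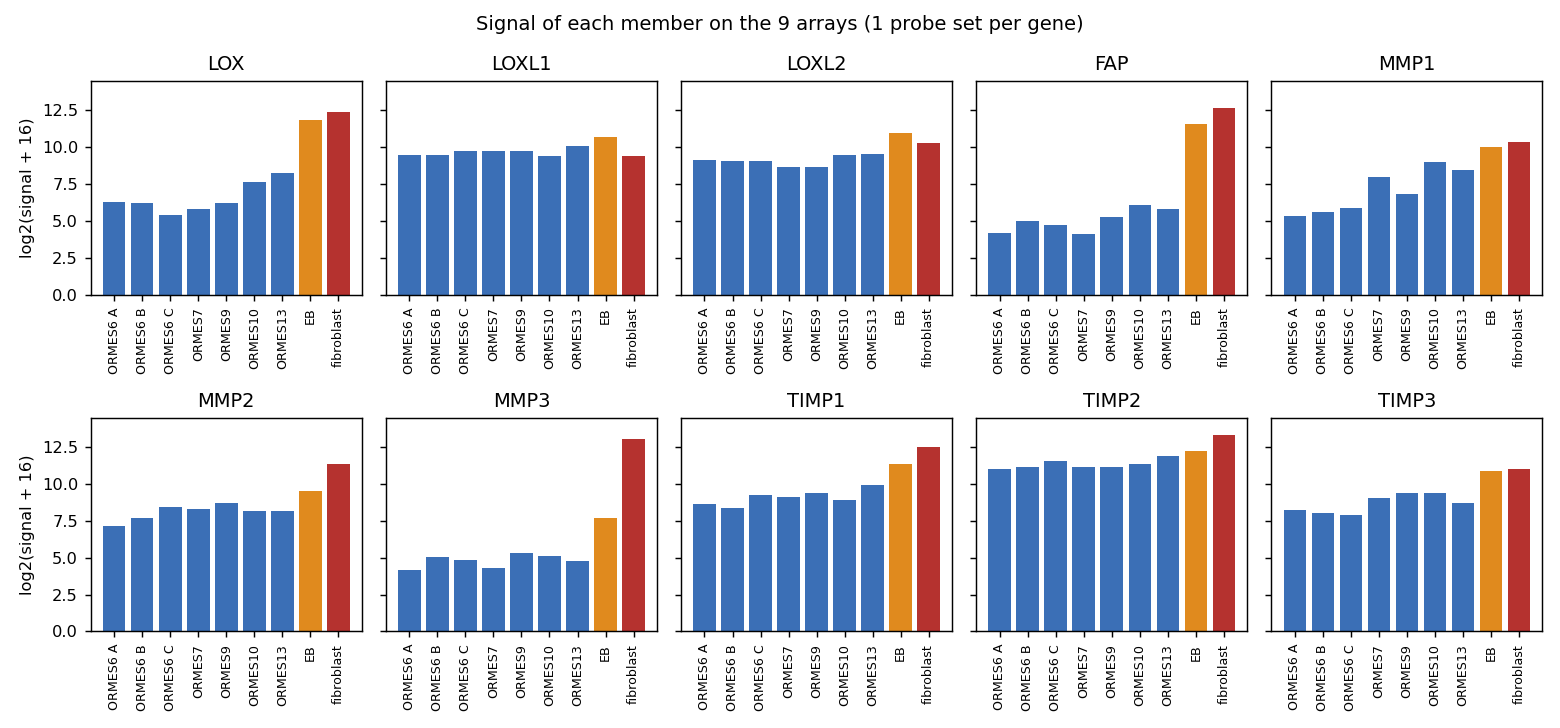
Signal of each of the 10 genes on the 9 arrays, as log2(signal + 16), from the probe set that stands for the gene. Blue bars are the 7 ES arrays, the orange bar is the EB array and the red bar the fibroblast array. The red bar is above every blue bar for 9 genes and the orange bar for all 10, and LOXL1 is the gene whose fibroblast bar lies among the ES bars.

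LOX, which gave the family its name, was dim in the ES lines and bright in both differentiated samples. Its signals were 62.2, 58.8 and 26.9 in ORMES6 A, B and C, 40.9 in ORMES7, 59.5 in ORMES9, 185 in ORMES10, 297 in ORMES13, 3650.4 in the EBs and 5338 in the fibroblasts. The ES range did not overlap either differentiated sample, and ORMES10 and ORMES13 stood above the other ES arrays. These were also the lines with the highest summed signal of fibroblast markers, whose part in the LOX signal was not tested. LOX was Present (detection p below 0.05) in ORMES9, ORMES10 and ORMES13 and not on the ORMES6 array with a detection p or in ORMES7. The difference was -5.59 ± 0.85 against the fibroblasts (48.1-fold, adjusted p = 0.00322) and -5.04 ± 0.85 against the EBs (33.0-fold, adjusted p = 0.0225). The second LOX probe set gave -4.33 ± 0.44 (adjusted p = 0.000404) and -2.87 ± 0.44 (adjusted p = 0.0165). The third, Absent (not Present) on all 5 ES arrays with detection values, gave -1.52 ± 0.51 (adjusted p = 0.0920) and -0.76 ± 0.51 (adjusted p = 0.531).

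LOXL1, a lysyl oxidase tied to elastic fibre formation, was the exception among the members. Its signals were 704, 710 and 837 in ORMES6 A, B and C, 843 in ORMES7, 852 in ORMES9, 653 in ORMES10, 1071 in ORMES13, 1639 in the EBs and 670.0 in the fibroblasts. The fibroblast array fell within the ES range, just above ORMES10, and the EB array lay above it. Neither difference passed the test, at 0.29 ± 0.32 against the fibroblasts (adjusted p = 0.632) and -0.98 ± 0.32 against the EBs (adjusted p = 0.153). LOXL1 was Present in all 5 lines.

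LOXL2, a lysyl oxidase that also acts on basement membrane collagen, was highest in the EBs. Signals of its brightest probe set were 535, 517 and 521 in ORMES6 A, B and C, 394 in ORMES7, 399 in ORMES9, 694 in ORMES10, 724 in ORMES13, 2004 in the EBs and 1245 in the fibroblasts. Both differentiated samples lay above the ES range. The call against the EBs stood just under the threshold (-1.89 ± 0.39, 3.70-fold, adjusted p = 0.0450), and it was lost in 9 of 17 other settings. Over all 17 the adjusted p ran from 0.0287 to 0.492. The difference from the fibroblasts was -1.21 ± 0.39 (adjusted p = 0.0870). The other LOXL2 probe sets were dim, with signals of no more than 42.9 on any array. One of them pointed the other way against both samples (0.95 ± 0.34 against the fibroblasts, adjusted p = 0.116, and 0.64 ± 0.34 against the EBs, adjusted p = 0.406). The remaining one was Absent on all 5 ES arrays with detection values and gave -0.37 ± 0.28 (adjusted p = 0.467) and -1.20 ± 0.28 (adjusted p = 0.0587).

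Of 11 other lysyl oxidases and proteins that activate, recruit or assist them, 5 were lower and 0 higher against the fibroblasts, with a median of -1.26, and 1 was lower and 0 higher against the EBs, with a median of -1.18. Against the fibroblasts LOXL3, another family member, was at -3.95 ± 0.59 (adjusted p = 0.00285). FBLN5, an elastic fibre protein that binds LOXL1, was at -3.31 ± 0.49 (adjusted p = 0.00281), and EFEMP2, a fibulin that binds LOX, at -3.16 ± 0.45 (adjusted p = 0.00208). PCOLCE2, an enhancer of procollagen processing, was at -3.19 ± 0.34 (adjusted p = 0.000489). FBLN5 was the gene called against the EBs (-2.39 ± 0.49, adjusted p = 0.0433). Of 12 collagen and elastic fibre substrates 1 was lower (FBN1, encoding fibrillin 1, -2.74 ± 0.56, adjusted p = 0.0126) and 1 higher (FBN2, fibrillin 2, 3.78 ± 0.93, adjusted p = 0.0300) against the fibroblasts. None was called by limma against the EBs (3 at an unadjusted p below 0.05), where the type I collagen chain COL1A2 had the largest difference (-3.58 ± 1.47, adjusted p = 0.263). The summed substrate signal ran from 3587 on ORMES6 A to 30012 in ORMES13 and was 41973 in the EBs and 41656 in the fibroblasts.

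**Figure D2:**
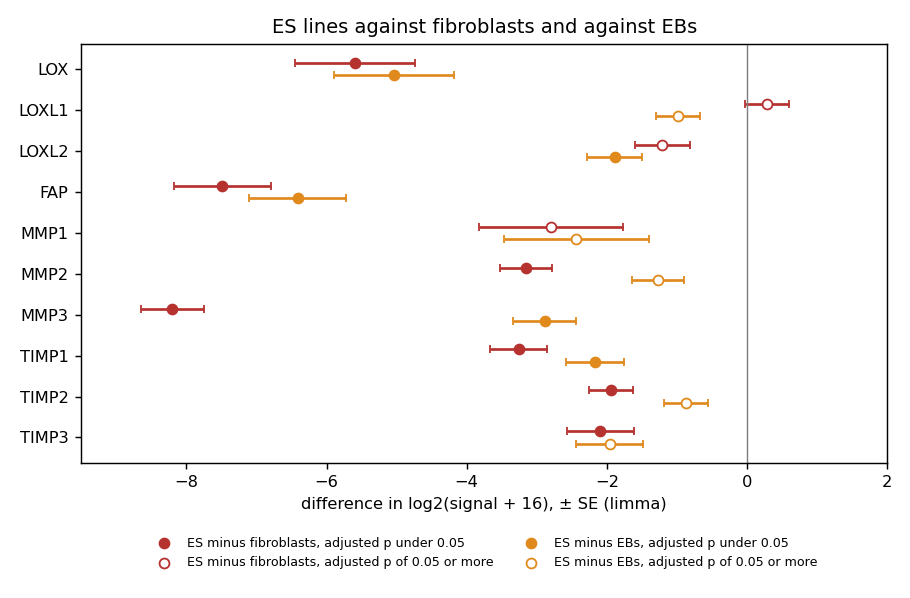
Difference between the mean of the 5 ES lines and the fibroblast array (red) or the EB array (orange) for each gene, on the log2(signal + 16) scale with the SE of the limma fit. Filled points have an adjusted p under 0.05 over all probe sets, open points do not, and the line at 0 marks no difference. MMP3 (-8.20) and FAP (-7.49) lie farthest to the left against the fibroblasts, and LOXL1 (0.29) is the red point on the right of the line.

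FAP was at or near background in the ES lines and bright in both differentiated samples. Signals of the probe set that stands for it were 2.1, 15.4 and 10.1 in ORMES6 A, B and C, 1.0 in ORMES7, 23.1 in ORMES9, 52.6 in ORMES10, 41.0 in ORMES13, 3083 in the EBs and 6515 in the fibroblasts. No ES array came near either differentiated sample, and the probe set was Present in ORMES9, ORMES10 and ORMES13. The difference was -7.49 ± 0.69 against the fibroblasts (adjusted p = 0.000237) and -6.41 ± 0.69 against the EBs (adjusted p = 0.00473). The other FAP probe set had signals of 1.2 to 41.1 on the ES arrays, 1026 in the EBs and 3955 in the fibroblasts, with differences of -7.01 ± 0.57 (adjusted p = 0.000128) and -5.08 ± 0.57 (adjusted p = 0.00511). It was Absent on all 5 ES arrays with detection values, so its ES level there is known only as an upper limit.

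None of 7 serine peptidases related to FAP was called by limma in either comparison (0 and 2 at an unadjusted p below 0.05), with medians of 0.49 and -0.13. The largest difference among them was in DPP6 (1.38 ± 0.76 against the fibroblasts, adjusted p = 0.316, and -1.23 ± 0.76 against the EBs, adjusted p = 0.489). DPP4, the closest relative of FAP, was at -0.69 ± 1.33 (adjusted p = 0.799) and 0.24 ± 1.33 (adjusted p = 0.952). Its signals were 21.2 to 32.5 on the ORMES6 and ORMES7 arrays, 162 in ORMES9, 173 in ORMES10, 706 in ORMES13, 93.9 in the EBs and 194 in the fibroblasts. Here the EBs and fibroblasts lay within the ES range, unlike for FAP.

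MMP3, or stromelysin 1, which cuts proteoglycans and activates other MMPs, had the largest difference from the fibroblasts among the members. Its signals were 1.8, 16.3 and 12.3 in ORMES6 A, B and C, 3.8 in ORMES7, 23.4 in ORMES9, 18.7 in ORMES10, 11.2 in ORMES13, 195 in the EBs and 8350 in the fibroblasts. It was dim on every ES array, with a Present call in ORMES9 alone, and the groups did not overlap. The difference from the fibroblasts was -8.20 ± 0.45 (adjusted p = 2.22e-05) and that from the EBs -2.89 ± 0.45 (7.40-fold, adjusted p = 0.0167). These sizes depended on the 16 added to the signal. With 1 or 64 in its place they were -9.45 or -6.77 against the fibroblasts and -4.03 or -1.75 against the EBs. Fibroblasts exceeded EBs 39.7-fold, the widest gap between these lone arrays among the members.

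MMP1, the interstitial collagenase, varied most between ES lines. Its signals were 23.7, 33.9 and 43.2 in ORMES6 A, B and C, 242 in ORMES7, 99.4 in ORMES9, 495 in ORMES10, 343 in ORMES13, 1026 in the EBs and 1325 in the fibroblasts. The differentiated samples were above every ES array, but ORMES10 reached a level within a few fold of them. With this spread neither difference passed the test (-2.80 ± 1.03 against the fibroblasts, adjusted p = 0.128, and -2.43 ± 1.03 against the EBs, adjusted p = 0.282). It was Present in all 5 lines.

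MMP2, or gelatinase A, was measurable in all ES lines and highest in the fibroblasts. Its signals were 125, 191 and 334 in ORMES6 A, B and C, 298 in ORMES7, 402 in ORMES9, 269 in ORMES10, 276 in ORMES13, 706 in the EBs and 2632 in the fibroblasts. The ES replicates of ORMES6 spanned nearly the whole range of the ES arrays, and both differentiated samples lay above it. MMP2 was lower than in the fibroblasts (-3.15 ± 0.37, 8.87-fold, adjusted p = 0.000840), and the difference from the EBs was -1.27 ± 0.37 (adjusted p = 0.118). The other MMP2 probe set stayed at 4.8 to 23.8 on all 9 arrays, was Absent on all 5 ES arrays with detection values and gave no call.

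Among 20 other MMPs most were dim on all arrays. Against the fibroblasts 3 were lower and 1 higher, with a median of 0.30, and against the EBs 1 was lower and 1 higher, with a median of -0.23. Over all genes 7.06% were called lower and 11.0% higher against the fibroblasts, and 2.03% and 1.76% against the EBs. Against the fibroblasts MMP11 (stromelysin 3) was at -3.71 ± 0.55 (adjusted p = 0.00283), MMP13 (collagenase 3) at -2.21 ± 0.38 (adjusted p = 0.00538) and MMP19 at -2.13 ± 0.42 (adjusted p = 0.0117). MMP25, a membrane-anchored MMP known from leukocytes, was higher in ES cells against both (1.85 ± 0.41, adjusted p = 0.0189, and 2.33 ± 0.41, adjusted p = 0.0246). MMP10, or stromelysin 2, had signals of 3.3 to 37.6 on the ES arrays, 484 in the EBs and 28.2 in the fibroblasts. It was lower in ES cells than in EBs (-3.82 ± 0.56, adjusted p = 0.0136), and the order of EBs and fibroblasts was the opposite of that of MMP3. Leukocyte and macrophage markers, read because leukocytes are another source of MMPs, had a summed signal of 244 to 319 on the ES arrays, 281 in the EBs and 969 in the fibroblasts. Of the 10, 0 to 4 were Present on the ES arrays with detection values, and 2 were called lower (CD68 and CD14) and 1 higher in ES cells than in fibroblasts. The defining leukocyte gene PTPRC was at 0.5 to 20.7 on all 9 arrays, and in the fibroblasts CD68 had 636 and CD14 had 199. The part of these cells in the MMP signals was not tested.

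TIMP1, the inducible inhibitor, had signals of 387, 318 and 596 in ORMES6 A, B and C, 530.3 in ORMES7, 647 in ORMES9, 478 in ORMES10, 953 in ORMES13, 2666 in the EBs and 5695 in the fibroblasts. Every ES array was below the EBs and the EBs below the fibroblasts. The difference was -3.26 ± 0.41 against the fibroblasts (9.57-fold, adjusted p = 0.00120) and -2.17 ± 0.41 against the EBs (4.50-fold, adjusted p = 0.0322). The call against the EBs was lost in 5 of 17 other settings, over which the adjusted p ran from 0.0152 to 0.129.

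TIMP2, the inhibitor that also takes part in the activation of MMP2, was Present in all 5 ES lines. Signals of its brightest probe set were 2034, 2299 and 3055 in ORMES6 A, B and C, 2301 in ORMES7, 2318 in ORMES9, 2621 in ORMES10, 3859 in ORMES13, 4868 in the EBs and 10229 in the fibroblasts. The ES range ended below the EBs, with ORMES13 closest. The difference from the fibroblasts was -1.94 ± 0.31 (3.84-fold, adjusted p = 0.00395), and that from the EBs was -0.87 ± 0.31 (adjusted p = 0.192). Against the fibroblasts all 3 TIMP2 probe sets were called, the others with -3.39 ± 0.38 (adjusted p = 0.000663) and -2.35 ± 0.36 (adjusted p = 0.00324). Against the EBs they disagreed. The second was lower in ES cells (-2.05 ± 0.38, adjusted p = 0.0302), whereas the third had 159 in the EBs within its ES range of 133 to 257 (0.37 ± 0.36, adjusted p = 0.684).

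TIMP3, the inhibitor that stays bound to the matrix, was nearly level between EBs and fibroblasts. Signals of its brightest probe set were 289, 251 and 220 in ORMES6 A, B and C, 508 in ORMES7, 656 in ORMES9, 642 in ORMES10, 396 in ORMES13, 1854 in the EBs and 2031 in the fibroblasts. The ES arrays lay below both, and the ORMES6 arrays were the lowest. TIMP3 was lower than in the fibroblasts (-2.09 ± 0.48, 4.26-fold, adjusted p = 0.0222), a call that was lost with the mean of all 5 probe sets (-1.03, adjusted p = 0.0769). The difference from the EBs was -1.96 ± 0.48 (adjusted p = 0.0724). Another TIMP3 probe set was called in both comparisons (-2.31 ± 0.42, adjusted p = 0.00744, and -2.61 ± 0.42, adjusted p = 0.0191). The remaining 3 were dim, with ES signals of 19.9 to 92.3, and were not called in either comparison. One of these, Present in all 5 lines, pointed the other way (0.64 ± 0.50 against the fibroblasts and 0.45 ± 0.50 against the EBs, adjusted p = 0.492 and 0.728).

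**Figure D3:**
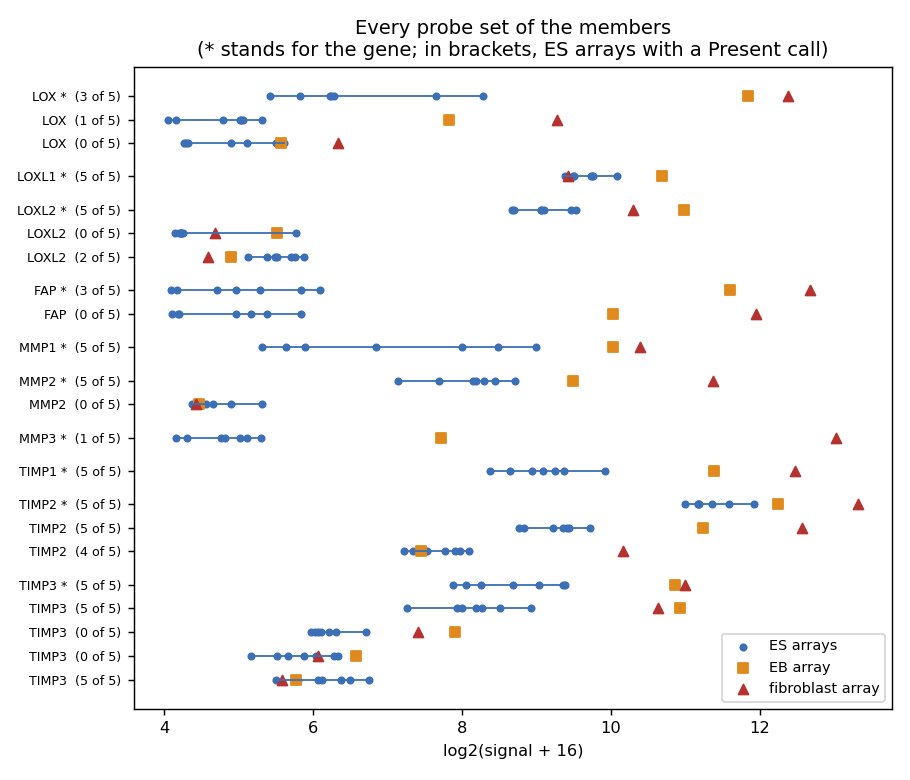
Log2(signal + 16) of all 22 probe sets of the 10 genes, 1 row each, with the 7 ES arrays as blue points joined by a line, the EB array as an orange square and the fibroblast array as a red triangle. An asterisk marks the probe set that stands for the gene, and brackets give on how many of the 5 ES arrays with detection values it was Present. Probe sets of a gene that lie at the left, near background, show small gaps where the bright probe set of the same gene shows a wide one.

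Other inhibitors and proteolytic systems were mixed. Of 3 further metalloproteinase inhibitors 2 were lower against the fibroblasts, with a median of -2.76, the broad protease trap A2M (-6.18 ± 0.86, adjusted p = 0.00194) and the membrane-anchored RECK (-2.76 ± 0.47, adjusted p = 0.00575). The third, TIMP4, was not called (2.55 ± 1.06, adjusted p = 0.179) and had signals of 217 to 255 on the ORMES6 and ORMES7 arrays, 82.7 in ORMES9, 43.8 in ORMES10, 12.5 in ORMES13, 40.4 in the EBs and 1.5 in the fibroblasts. None was called by limma against the EBs (2 at an unadjusted p below 0.05), where the median was -1.37 and A2M had -3.76 ± 0.86 (adjusted p = 0.0586). In the plasminogen system, which activates several MMPs, 3 of 8 genes were lower and 0 higher against the fibroblasts, with a median of -1.63. Among them were the inhibitor SERPINB2 (-4.47 ± 0.39, adjusted p = 0.000189) and the tissue plasminogen activator PLAT (-3.08 ± 0.43, adjusted p = 0.00203). Against the EBs 1 was lower and 1 higher, with a median of 0.11. PLAT was lower (-2.68 ± 0.43, adjusted p = 0.0193), and PLAU, the urokinase activator, was higher in ES cells (2.39 ± 0.31, adjusted p = 0.00828), with signals of 1509 to 3023 on the ES arrays against 443 in the EBs and 1776 in the fibroblasts.

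Of 8 cathepsins and cystatins, lysosomal proteases and their inhibitors, 5 were lower and 0 higher against the fibroblasts, with a median of -1.80. The collagen-degrading CTSK was at -5.00 ± 0.49 (adjusted p = 0.000313), CTSS at -2.43 ± 0.41 (adjusted p = 0.00546) and the inhibitor CST3 at -2.24 ± 0.55 (adjusted p = 0.0297). CTSK was the member called against the EBs (-3.22 ± 0.49, adjusted p = 0.0156), where the list median was -0.45. Of 16 ADAM and ADAMTS proteases, membrane-bound and secreted relatives of the MMPs, 3 were lower and 2 higher against the fibroblasts (median -0.05), and 1 was lower against the EBs (median -0.72). The aggrecan-cutting ADAMTS1 and ADAMTS5 were at -5.45 ± 1.18 (adjusted p = 0.0174) and -4.57 ± 0.89 (adjusted p = 0.0106) against the fibroblasts, and the procollagen protease ADAMTS3 was at 2.42 ± 0.42 (adjusted p = 0.00606). The sheddase ADAM9 was lower against both (-3.17 ± 0.32, adjusted p = 0.000357, and -1.85 ± 0.32, adjusted p = 0.0229).

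Between ES lines none of the 10 members passed the F test of limma over 7 arrays, with the error taken from ORMES6. The rate of calls over all genes was 0.162%, and 4 of 10 members had an unadjusted p below 0.05, as did 5247 of all 52763 probe sets. MMP1 had the widest range, 10.4-fold from the ORMES6 mean to ORMES10 (unadjusted p = 0.000377, adjusted p = 0.106). LOX spanned 5.50-fold (adjusted p = 0.381), FAP 4.04-fold (adjusted p = 0.464) and TIMP3 2.51-fold (adjusted p = 0.362), and the other members spanned 1.62-fold to 2.23-fold. The FAP range depended on the offset, with 2.01 log2 units at the offset of 16, 4.74 at 1 and 0.84 at 64. ORMES13 was the highest line for 5 members, ORMES9 for 3 and ORMES10 for 2, while ORMES7 was the lowest for 5, ORMES6 for 4 and ORMES10 for 1. LOX, FAP and MMP3, which were among the members lowest in ORMES7, were Absent there, so their low ranks are ranks near background. For MMP2 and TIMP1 the low rank of ORMES6 came from replicates A and B. Replicate C, with signals of 334 and 596, was above ORMES7 and ORMES10 for both genes. The SD between lines exceeded that between the ORMES6 replicates for 8 of 10 members, the exceptions being MMP2 (0.34 between lines, 0.66 between replicates) and MMP3 (0.39 and 0.45). Among the 8, the SDs were nearly equal for TIMP1 (0.450 and 0.447) and TIMP2 (0.310 and 0.299). Neither this count nor the ranking of lines was set against all genes. Without replicate C, 7 of 10 members were called, but so were 8364 of 52763 probe sets (15.9%), so replicate C decided whether lines differed by this test.

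**Figure D4:**
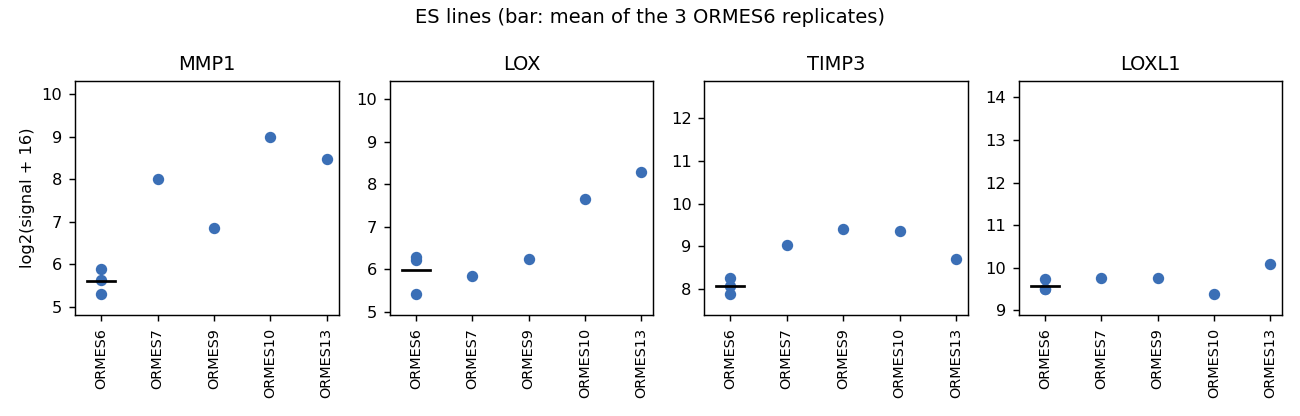
Log2(signal + 16) of MMP1, LOX, TIMP3 and LOXL1 on the 7 ES arrays by line, each point 1 array, with a bar at the mean of the 3 ORMES6 replicates. All panels span the same number of log2 units. MMP1 spreads from 5.31 in ORMES6 A to 9.0 in ORMES10 and LOX from 5.42 in ORMES6 C to 8.29 in ORMES13, whereas LOXL1 stays between 9.39 and 10.1.

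The lone EB and fibroblast arrays were set side by side with no test. The fibroblast signal was the higher for 8 of 10 members, with a median EB minus fibroblast difference of -0.81 against 0.20 over all genes. After MMP3 (-5.31) the widest gap was in MMP2 (-1.88, 3.67-fold). FAP (-1.08), TIMP1 (-1.09) and TIMP2 (-1.07) were about as far apart, with folds of 2.10 to 2.13. LOX (-0.55), MMP1 (-0.36) and TIMP3 (-0.13) were closer. LOXL1 (1.27) and LOXL2 (0.68) were higher in the EBs. Smooth muscle markers, another mesenchymal list with 4 to 5 of 6 Present on the ES arrays with detection values, had a summed signal of 6595 to 10468 on the ES arrays, 18138 in the EBs and 29286 in the fibroblasts. Of the 6, 4 were called lower and 1 (MYH11) higher in ES cells than in fibroblasts, and 2 lower and 0 higher than in EBs. MYH11 had 1424 to 2188 on the ES arrays, 1212 in the EBs and 841 in the fibroblasts. The part of smooth muscle cells in these differences was not tested. The summed signal of 7 endothelial markers was 1292 to 3215 on the ES arrays, 433 in the EBs and 132 in the fibroblasts, and the receptor TEK made up 895 to 2689, 186 and 46.0 of it. Of the 7, 2 were called higher in ES cells than in fibroblasts and 1 higher than in EBs, and 0 were called lower. The sum of 4 epithelial markers was 1349 to 9764 on the ES arrays, 2321 in the EBs and 32.2 in the fibroblasts.

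The calls against the EBs depended more on the settings than those against the fibroblasts. The EB array had the lowest spike signal of all 9, and with the spike level as a covariate 0 members and 1 probe set in all were called. The differences kept their sign there, with LOX at -6.93 (adjusted p = 0.187), FAP at -7.81 (adjusted p = 0.129), MMP3 at -3.46 (adjusted p = 0.227) and TIMP1 at -3.50 (adjusted p = 0.129). Without ORMES7, without ORMES9, without ORMES10 or without ORMES6 replicate C, the count was 3 of 10 in place of 5. The count against the fibroblasts was 6 to 8 in every setting run. In the authors' deposited table of signal log ratios over the EB array, the probe sets that stand for the 10 members were below 0 on all 7 ES arrays. The authors' deposited table gave -7.3 to -4.0 for LOX, -11.6 to -5.6 for FAP, -5.4 to -1.3 for MMP1 and -1.4 to -1.1 for TIMP2. Other probe sets of LOX, LOXL2, MMP2, TIMP2 and TIMP3 had ratios above 0 on at least 1 ES array. A dim LOXL2 probe set was at 0.2 to 1.1 on all 7. These ratios came from the same arrays as the fits, so they are no independent check.

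The genes whose log2 signals followed each member most closely over the 9 arrays were ranked by Pearson r among 19782 other genes. The 9 points are 7 ES arrays and 2 differentiated samples, which share this gap, so r is given as a description. LOX was closest to EGFL5 (r = 0.993), TGFB2 (0.990) and RAB22A (0.988), and FAP to CDKN1A (0.996), GALNTL4 (0.994) and COPZ2 (0.992). MMP3 was closest to BF (0.994), CLEC2B (0.990) and CXCL6 (0.989), whose own differences from the fibroblasts were -8.02, -6.38 and -7.82. MMP1 was closest to PAPPA (0.982), a metalloproteinase that cuts IGF-binding proteins, and MYLK (0.969), and MMP2 to LOC196394 and IGFBP6 (both 0.979). For the inhibitors the nearest genes were LOC283666 for TIMP1 (0.993), TNFSF15 for TIMP2 (0.992) and LMNA for TIMP3 (0.971). LOXL1 was closest to CHD3 (0.978) and LOXL2 to D2LIC (0.973), SSBP2 (0.972) and PLOD (0.970).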

How the data were processed

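The authors deposited probe set intensity values for 9 arrays on a linear scale, produced with MAS5 per the labels, with a 2% trimmed mean of 200 on each array; they were kept as scaled. Detection p-values deposited by the authors for 1 ORMES6 array and the other 4 lines (and for 12132 probe sets in the fibroblasts) were read as Present below 0.05. The authors also deposited log2 signal log ratios of ES arrays over the EB array, per the file headers, which are quoted as theirs. A further 137 per-sample columns were not used.

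After 99 control probe sets and 3 with missing values were left out, the log2(signal + 16) values of 52763 probe sets were fitted in R 4.3.3 by limma 3.58.1 (lmFit, eBayes with a variance trend; 4 residual and a median of 5.04 prior degrees of freedom). The 3 ORMES6 arrays were averaged, and the 5 lines and both lone arrays entered 1 fit. The lines are the replicates, so p-values of this fit judge the difference from a lone array against the spread between lines. Lines were compared by an F test over the 7 ES arrays. The Benjamini-Hochberg adjustment ran over all probe sets. The fit was tested on simulated data that gave the lone arrays the spread of the ES lines. The simulation therefore could not check that assumption about the lone arrays. Alternatives were offsets of 1 and 64, quantile normalization, median centring, a mean signal of at least 100, the mean of all probe sets of a gene, no variance trend, the spike level as a covariate, and leaving out arrays or lines.

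The members and lists were chosen with earlier results of these data known. Named were all members, up to 4 called genes per list and comparison with the largest difference (the largest 1 where none was called), POU5F1 and NANOG, and up to 3 genes nearest to each member. DPP4, THY1, VIM, LUM, MYH11, TIMP4, TEK, PTPRC, CD68 and CD14 were named after their values were seen. Sequences and coordinates are not used here. A result that the rule would name is not reported here.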

Additional observations from a re-analysis of the deposited data

Results flagged for a closer look

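Among the 22 probe sets, the highest or lowest of the 5 ES lines was tested for standing apart from the others by Dixon's ratio of its gap to the range, with a limit of 0.71. Chance flags about 1 in 20 such groups, and 2 of 22 passed. A dim LOXL2 probe set (MmugDNA.2991.1.S1_at) was highest in ORMES6 (4.75 on the log2 scale, ratio 0.856), a value set by replicate A, whose signal was 38.6 against 1.7 to 3.1 on the other ES arrays. The brightest TIMP2 probe set (MmugDNA.1847.1.S1_at) was highest in ORMES13 (11.9 on the log2 scale, ratio 0.749), where its signal was 3859 against 2034 to 3055 on the other ES arrays.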

How the results depend on the processing

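Against the fibroblasts, the count of members lower in ES cells was 7 and ran from 6 to 8 over 17 alternatives, and no member's difference changed sign in any of them. Against the EBs the count of 5 ran from 0 to 6. It was 0 with the spike level as a covariate and 3 without ORMES6 replicate C, without ORMES7, without ORMES9 or without ORMES10, so over the settings that leave out an array or a line it ran from 3 to 5. LOXL2 lost its call against the EBs in 9 of 17 alternatives and TIMP1 in 5, while LOX, FAP and MMP3 lost it with the spike covariate alone, and the cause was not tested. ORMES6 from replicate C alone, chosen after seeing the data, gave 7 and 5. Against the fibroblasts LOXL2 gained a call with median centring and with a mean signal of at least 100, and with the latter TIMP3 gained one against the EBs. Between lines the count of 0 became 1 with median centring (MMP1) and 7 without ORMES6 replicate C, and was 0 when any other array or line was left out. No F test was possible without ORMES6, since no other line has replicates. The median EB minus fibroblast difference of -0.81 ran from -1.07 to -0.52. The dim probe sets of LOX, LOXL2, MMP2 and TIMP3 gave smaller differences than the brightest probe set of the same gene. The part of background signal in this was not tested. Not all of them were at background in ES cells, as a TIMP3 probe set that pointed the other way was Present in all 5 lines. No paired analysis was possible because the EB and fibroblast samples were 1 array each, and no label pairs either of them with a line.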
